A study of Mus musculus with 6 samples.

Results

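The antigen presentation genes of the major histocompatibility complex (MHC) were followed across 6 stromal populations sorted from the omentum, a fatty fold of the peritoneum that holds immune cell clusters called milky spots. They were taken by symbol from the RNA-seq table, and all 10 were found among its 23352 genes. B2m, H2-K1 and H2-D1 encode the chains of MHC class I. Tap1, Psmb8 and Psmb9 supply peptides to class I, and Cd74, H2-Aa, H2-Ab1 and H2-Eb1 encode the class II chains and their chaperone. Each passed the minimum of a mean of 1 FPKM, the unit of read numbers scaled to transcript length and library total, as did 12053 genes in all.

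The samples came from the omentum of WT C57BL/6 mice, and no treatment is given for them. P1, P2 and P3 were CD45-CD140a+CD105+ cells with high, intermediate and low activity of aldehyde dehydrogenase (ALDH). P4 and P5 were CD45-CD140a+CD105- cells with intermediate and low ALDH activity, and P6 was a CD45- fraction with low CD140a that was positive for ALDH. CD105 is the product of Eng and CD140a that of Pdgfra. Eng was at 42.6 to 52.4 FPKM in P1 to P3 and at most 0.728 FPKM in P4 to P6, and Pdgfra was at 117 to 154 FPKM in P1 to P5 and 5.36 FPKM in P6. The age of the mice and whether cells of several mice were pooled are not given in the sources used here. There was 1 library for each population, so no difference has a replicate check and no p-value is given. Intervals given with a ratio are 95% intervals for counting error only.

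MHC class I is made of a heavy chain, here H2-K1 or H2-D1, and B2m, and it shows peptides from inside the cell to CD8+ T cells on nearly all nucleated cells. Psmb8 and Psmb9 are catalytic subunits that replace constitutive ones in the immunoproteasome, and Tap1 is a subunit of the transporter that brings peptides into the endoplasmic reticulum. MHC class II is made of an alpha and a beta chain, is held by the invariant chain Cd74 until it meets peptides in endosomes, and shows them to CD4+ T cells. It is best known from dendritic cells, B cells and macrophages, and lymph node stromal cells can also carry it. H2-Aa and H2-Ab1 encode the chains of I-A. The alpha gene that would pair with H2-Eb1 to form I-E is defective in C57BL/6 mice. Interferon-gamma raises both classes, in part through IRF1 and through the coactivators NLRC5 for class I and CIITA for class II.

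The upstream sequences of members whose levels moved together are shown because they carry the elements known from MHC promoters. RefSeq promoter windows on GRCm38.p6 were found for 8 of the 10 members, that is for all but H2-Ab1 and Cd74. Capitals mark matches to 5 motifs, searched on both strands: TGACG (the core of the X2 box, bound by CREB and ATF factors), ATTGG (the Y box core, bound by NF-Y), TAGCAAC (an X box core, bound by RFX), GGGATTCCC (the kappaB site of the class I enhancer) and GAAANNGAA (a core of the interferon-stimulated response element). The capital run of H2-Aa goes on past TGACG because the same letters occur there on the other strand, in overlap. The windows lie at chr17:34000348-34000477 on the minus strand for H2-K1, chr17:35262993-35263022 on the plus strand for H2-D1, chr2:122147537-122147666 on the plus strand for B2m, chr17:34287824-34287953 on the minus strand for H2-Aa and chr17:34305737-34305866 on the plus strand for H2-Eb1. For H2-D1, the 30 bases that hold both cores are given. In GENCODE M21 all members but B2m and Cd74 lie between positions 33996017 and 35267499 of chromosome 17, which holds the mouse MHC.
H2-K1: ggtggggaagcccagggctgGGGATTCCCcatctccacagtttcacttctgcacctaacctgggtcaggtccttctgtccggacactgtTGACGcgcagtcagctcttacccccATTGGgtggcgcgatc
H2-D1: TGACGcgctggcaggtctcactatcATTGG
B2m: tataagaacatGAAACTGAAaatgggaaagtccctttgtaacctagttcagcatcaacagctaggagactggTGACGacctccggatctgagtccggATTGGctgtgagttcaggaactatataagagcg
H2-Aa: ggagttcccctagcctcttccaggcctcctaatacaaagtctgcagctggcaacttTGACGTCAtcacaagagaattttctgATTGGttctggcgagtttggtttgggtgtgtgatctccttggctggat
H2-Eb1: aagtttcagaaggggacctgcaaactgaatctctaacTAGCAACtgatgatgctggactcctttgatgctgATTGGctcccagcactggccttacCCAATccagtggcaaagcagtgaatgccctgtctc

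In the 250 bases before the start site, TGACG was found in 6 of the 8 members with a window and in 17.9% of all 27025 promoters, and ATTGG was found in 7 of 8 and in 34.5%. TGACG followed on the same strand by ATTGG after 5 to 40 bases occurred in B2m, H2-K1, H2-D1 and H2-Aa, and in 0.962% of all promoters. The gap was 20 bases in the 3 class I chains and 21 bases in H2-Aa. The paired motif and the length of the motifs were chosen after these sequences were seen, so the shares of all promoters are no test of it. The kappaB motif was present in H2-K1 and H2-D1 (0.311% of all promoters), whose upstream windows were identical at 167 of 190 aligned bases. TAGCAAC was present in H2-Eb1 (3.30%) and GAAANNGAA in B2m (7.16%). Only these exact patterns were searched, so a promoter without a match may still hold another form of the element. Tap1 and Psmb9 are transcribed away from each other, and 225 bases separate their RefSeq start sites (chr17:34187331-34187555). These matches describe the letters and do not show that a factor was bound.

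The depth was estimated from the value of single reads at 37.0 M reads in P6 and at 53.4 to 61.8 M reads in the other libraries. The least covered member value, H2-Aa in P1, rested on an estimated 296 reads. Reads shared with related genes touched the class I genes: 6.91% of the 76-base stretches of H2-D1 and 1.42% of those of H2-K1 occur in other genes, against none in B2m and the 4 class II members. Tap1 and Psmb9 share 4.76% and 10.7% of theirs with each other, because annotated first exons overlap on opposite strands, and Psmb8 shares 3.16% of its stretches with Gm20496. Whether reads were counted by strand is not given in the sources used here.

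The class I chains were among the most abundant transcripts in every population, and in the deposited values they were lowest in P1 and highest in P5. B2m was at 1326, 1447, 1856, 2234, 2607 and 1471 FPKM from P1 to P6, and it ranked 25th of all genes in P1 and 5th in P5. H2-K1 was at 442, 526 and 669 FPKM in the CD105+ cells (P1 to P3), 1070 and 1116 FPKM in the CD105- cells (P4 and P5) and 797 FPKM in P6. H2-D1 was at 526, 588, 702, 921, 990 and 683 FPKM in the same order. In the deposited values the highest level of each chain was 1.88 to 2.52 times the lowest. All 3 CD105+ populations lay below both CD105- populations for each chain, as for 38.5% of all genes. After division by Gapdh this held for H2-K1 and not for B2m and H2-D1. P6 lay below P4 and P5, at 0.607 to 0.729 of their mean. B2m in P6 was 1.02 times P2 (interval 1.003 to 1.03), the closest of the neighbours in its order. H2-K1 varied more than H2-D1, so that their ratio was 0.841 to 0.952 in P1 to P3 and 1.13 to 1.17 in P4 to P6. In these bulk samples, fewer cells that express a gene and less RNA of it per cell cannot be told apart.

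The peptide supply genes were likewise lowest in P1 and highest in P5 in the deposited values, at lower levels. Psmb8 was at 45.8, 47.5 and 59.2 FPKM in P1 to P3, 90.1 and 95.9 FPKM in P4 and P5 and 65.1 FPKM in P6. Psmb9 was at 25.6, 25.9, 34.1, 47.6, 49.99 and 39.5 FPKM from P1 to P6. Tap1 was at 12.2, 16.4, 17.7, 24.1, 26.2 and 21.3 FPKM. P1 and P2 were not separated by counting error for Psmb8, with P2 at 1.04 times P1 (0.991 to 1.08), nor for Psmb9, at 1.01 times (0.946 to 1.08), whereas Tap1 was 1.34 times higher in P2 (1.25 to 1.43). For all 3 genes P4 and P5 were above P1 to P3, also under each scaling tried, a pattern held by 38.5% of all genes as deposited. After division by Gapdh the margin was small for Tap1, at 20.5 in P3 and 20.7 in P4. The same was so for Psmb9, at 39.5 in P3 and 39.7 in P5, and no interval was computed on that scale. P6 stood between the groups in the deposited values. Tap1 followed Tap2, the other subunit of the transporter, at 0.251 to 0.296 of its level in all 6 libraries.

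**Figure D1:**
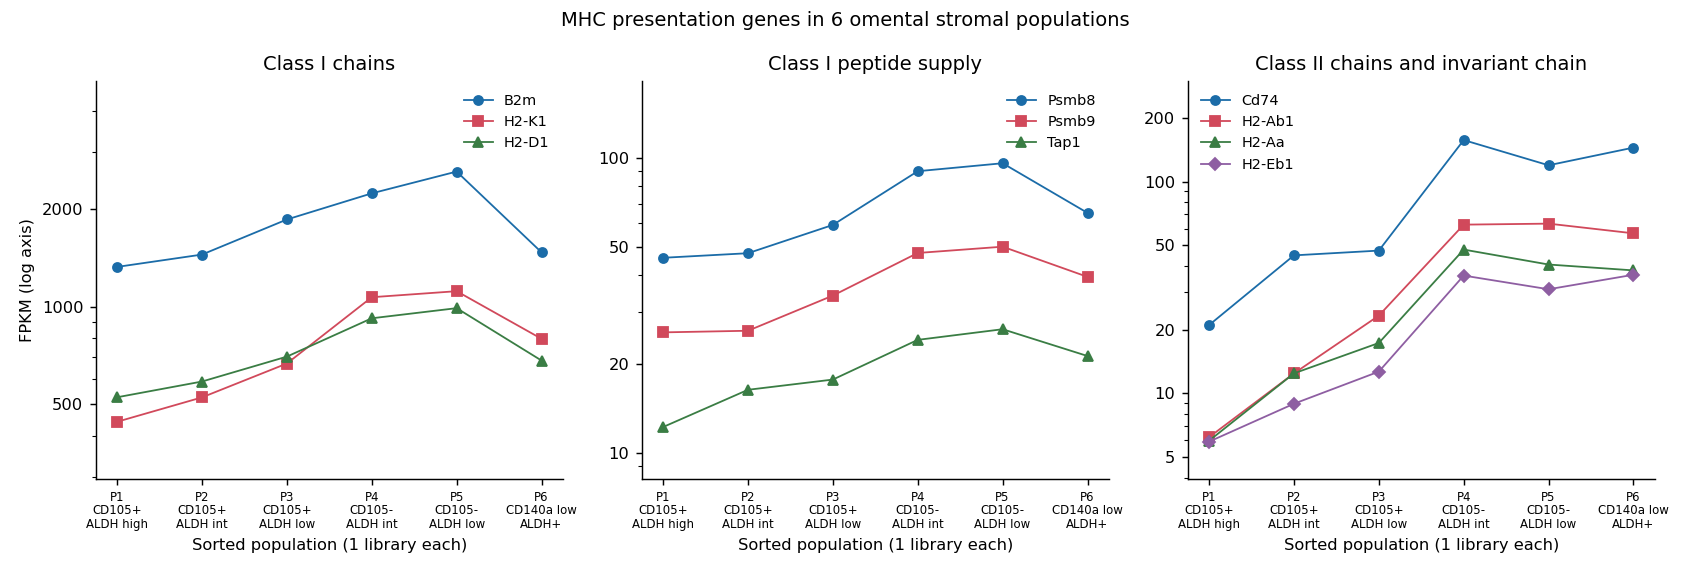
FPKM on a log axis of the class I chains (left), the peptide supply genes (middle) and the class II genes (right) in P1 to P6, 1 point per library, with lines that only join the points of a gene. All 10 genes were lowest in P1 (7 with the median of ratios) and higher in P4 and P5 than in P1 to P3 (8 after division by Gapdh), with a range of 1.88 to 2.52 times for the first 6 and 6.14 to 10.2 times for class II. P4 and P5 lay above P1 to P3 for 38.5% of all genes as deposited, and the share lowest in P1 was not counted.

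The immunoproteasome genes moved without their constitutive counterparts. Psmb5, Psmb6 and Psmb7, the subunits they replace, stayed within 46.0 to 52.8, 45.9 to 50.4 and 58.9 to 66.6 FPKM over the 6 libraries. The ratio of Psmb8 to Psmb5 within a library was 0.910, 0.970 and 1.17 in P1 to P3, 1.71 and 2.08 in P4 and P5 and 1.39 in P6. That of Psmb9 to Psmb6 was 0.557, 0.543, 0.705, 0.966, 1.04 and 0.784 from P1 to P6. A common factor for a library leaves these ratios as they are, and both were higher in P4 and P5 than in any CD105+ population. The ratio of Psmb10, the remaining immunoproteasome subunit, to Psmb7 spanned less, with 0.821 in P1, 1.26 in P5 and 0.824 in P6.

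**Figure D2:**
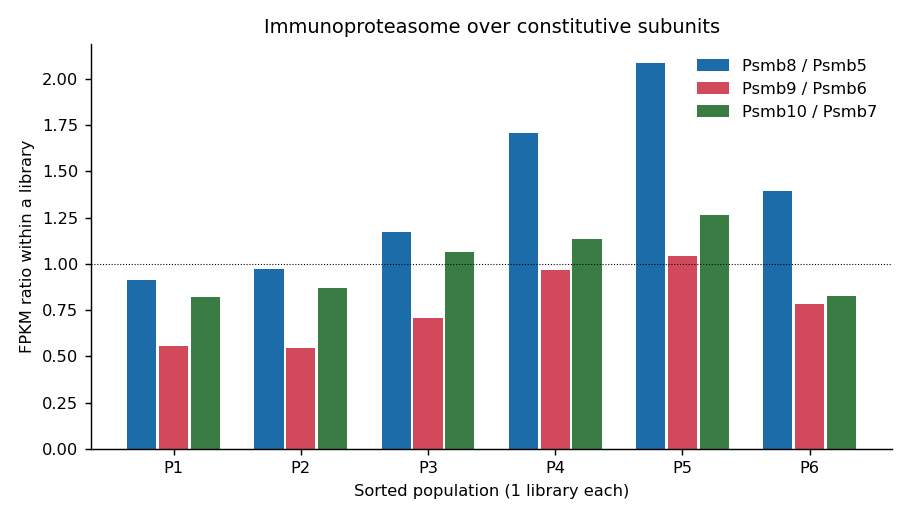
FPKM ratios within each library of the immunoproteasome subunits Psmb8, Psmb9 and Psmb10 to the constitutive subunits Psmb5, Psmb6 and Psmb7, 1 bar per library, with equal levels as a dotted line. Psmb8 over Psmb5 went from 0.910 in P1 to 2.08 in P5, and for all 3 pairs P5 was the highest.

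The class II genes differed most between the populations. Cd74, the invariant chain, was at 21.0, 44.8 and 47.2 FPKM in P1 to P3, 157 and 119 FPKM in P4 and P5 and 145 FPKM in P6. H2-Aa was at 5.97, 12.4, 17.3, 47.7, 40.6 and 38.1 FPKM from P1 to P6. H2-Ab1 was at 6.21, 12.4, 23.3, 62.6, 63.3 and 57.0 FPKM. All of them were lowest in P1, and P4, P5 and P6 lay above P1, P2 and P3 with no overlap. For P4 and P5 alone, 38.5% of all genes held this pattern, and the shares with P6 and lowest in P1 were not counted. H2-Eb1, the beta chain of I-E, was at 5.91, 8.93, 12.7, 36.0, 31.0 and 36.3 FPKM. The highest value was 7.48 times the lowest for Cd74, 7.99 times for H2-Aa, 10.2 times for H2-Ab1 and 6.14 times for H2-Eb1. Unlike the class I chains, class II in P6 was at the level of P4 and P5, at 0.862 to 1.08 of their mean. Within this upper group, H2-Ab1 did not differ beyond counting error between P4 and P5 (ratio 0.989, interval 0.946 to 1.03), nor did H2-Eb1 between P6 and P4 (1.01, 0.953 to 1.07).

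The steps between the CD105+ populations differed from gene to gene. Cd74 was 2.13 times higher in P2 than in P1 (1.99 to 2.29) but only 1.05 times higher in P3 than in P2 (1.0001 to 1.11). H2-Ab1 was 2.001 times higher in P2 than in P1 (1.76 to 2.28) and again 1.87 times higher in P3 than in P2 (1.72 to 2.05). The composition of the class II transcripts shifted with these steps, and the ratio of Cd74 to H2-Ab1 was 3.39 in P1, 3.61 in P2 and 1.89 to 2.54 in P3 to P6. The ratio of the 2 chains of I-A, H2-Aa to H2-Ab1, was 0.962 in P1, 1.0004 in P2 and 0.641 to 0.762 in P3 to P6. H2-Eb1 to H2-Ab1 was highest in P1 at 0.953, and 0.490 to 0.719 elsewhere. The summed class II members made 39.1 FPKM in P1 and 303 FPKM in P4, against 2295 and 4225 FPKM for the summed class I chains.

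Differences between populations were then set against those of all 12053 genes, on the scale of log2(FPKM + 0.1), and a gene was called when past 2-fold. The 7 comparisons share libraries and are not independent of each other. Between CD105+ and CD105- cells at intermediate ALDH activity (P2 over P4), 5 members were lower in P2, namely H2-K1 and the 4 class II members, and none was higher, where 7.33% of all genes were lower and 4.26% higher. H2-K1 was close to the limit at -1.02 and inside it after division by Gapdh (-0.55), with the median of ratios (-0.94) and with a common sum of FPKM (-0.99), which left the 4 class II members. The median log2 difference was -0.97 for the members and -0.08 for all genes. The class II members were at -1.81 (Cd74) to -2.32 (H2-Ab1), and P4 over P2 was 5.04 times for H2-Ab1 (4.66 to 5.45) and 1.54 times for B2m (1.53 to 1.56). At low ALDH activity (P3 over P5), the 4 class II members were lower and none was higher, against 6.11% and 6.79% of all genes. The members' median was -0.72 and that of all genes -0.09. P5 over P3 was 2.72 times for H2-Ab1 (2.56 to 2.89), 2.53 times for Cd74 (2.42 to 2.64) and 1.40 to 1.67 times for the class I chains. Both CD105- populations lay above all 3 CD105+ populations for 10 of 10 members, or 8 of 10 after division by Gapdh, a pattern held by 38.5% of all genes as deposited.

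With decreasing ALDH activity among CD105+ cells, all 10 members, or 8 with the median of ratios, were ordered P1 below P2 below P3, as were 36.7% of all genes as deposited. Between P1 and P2, 2 members, Cd74 and H2-Aa, were past 2-fold lower in P1, against 4.25% of all genes, and H2-Ab1 was just inside the limit at -0.99. H2-Aa, at -1.04, was inside it with the median of ratios (-0.96), quantile normalization (-0.93) and a pseudocount of 1 (-0.95), and H2-Ab1 passed it with a common sum of FPKM (-1.02). Between P2 and P3 no member was past 2-fold, where 2.61% of all genes were lower in P2, and the members' median was -0.35 against -0.03. Among CD105- cells (P4 over P5) no member passed, with 1.24% of all genes lower and 3.80% higher, and 3 class II members were higher in P4 and the other 7 members lower, of which 5 turned to higher after division by Gapdh. B2m was at 0.857 of its P5 level in P4 (0.849 to 0.865), while Cd74 was 1.32 times higher in P4 (1.28 to 1.36). P1 over P4 had the widest gap, with the same 5 genes by name as P2 over P4 lower in P1, against 9.82% of all genes, and P4 over P1 was 10.1 times for H2-Ab1 (9.03 to 11.3). H2-K1 was at -1.27 there and, after division by Gapdh, inside the limit at -0.78. P6 over the mean of P1 to P5 gave no member past 2-fold, with 9.33% of all genes lower and 9.34% higher. The class II members were at 0.62 to 0.94 there and the class I chains at -0.37 to 0.06. Against P3 alone, a comparison added after seeing the data, the 4 class II members were past 2-fold higher in P6, as were 11.1% of all genes.

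**Figure D3:**
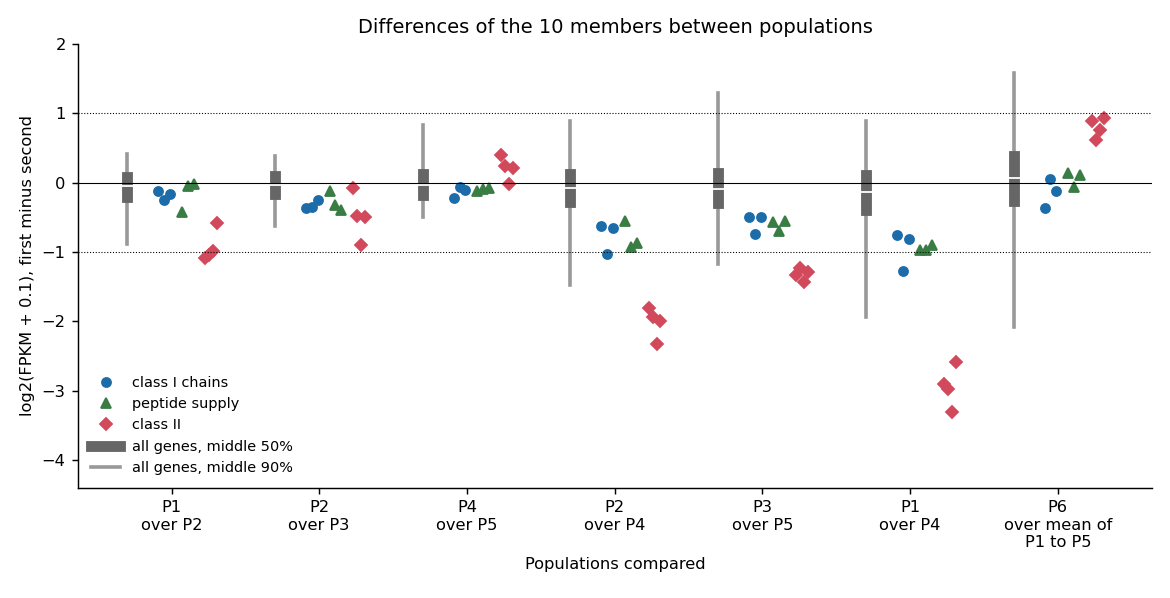
Differences in log2(FPKM + 0.1) of the 10 members in the 7 comparisons, each point 1 gene, beside the middle 50% and 90% of all 12053 genes as bars, with dotted lines at a 2-fold difference. Class II lies below the 2-fold line in P2 over P4, P3 over P5 and P1 over P4, and lies above 0 in P6 over the mean of P1 to P5.

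The other genes of the class II pathway were on both sides. H2-DMb1 and H2-DMb2, beta chains of the peptide exchange factor H2-M, and Lgmn, an endosomal protease, were past 2-fold higher in P4 than in P2 and in P5 than in P3, the 3 of 8 genes tested in each case. In P2 over P4, H2-DMb2 was at the limit (-1.01) and inside it under all 4 scalings (-0.55 to -0.98), and after division by Gapdh all 3 genes were inside it in P3 over P5. H2-DMb1 was at 1.82, 3.60, 7.99, 14.7, 20.6 and 13.6 FPKM from P1 to P6, and Lgmn at 28.8, 36.4, 65.0, 107, 159 and 68.0 FPKM. H2-DMa, the alpha chain, was lower throughout, at 0.565 FPKM in P1 and 2.76 in P6. All 3 chains of H2-M were lowest in P1, as the class II members were. Ctss, a protease that trims the invariant chain in professional presenting cells, was the 1 gene of the 8 past 2-fold higher in P2 than in P4, at 6.49 FPKM in P2 and 0.982 to 2.39 elsewhere. Ctsl, which does so in thymic epithelium, was at 549 to 614 FPKM in P1 to P5 and 322 in P6. H2-Oa and H2-Ob, the chains of the H2-M inhibitor, were at most 0.161 and 0.505 FPKM.

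Of the 10 other class I pathway genes, none was past 2-fold in P2 over P4 or P3 over P5, yet all 10 were lower in the CD105+ library of each pair, with median log2 differences of -0.43 and -0.30, a direction that 4 and 1 of the 10 kept after division by Gapdh. Tap2 went from 48.7 FPKM in P1 to 88.7 in P5, and Psme1, of the proteasome activator, from 98.5 to 166. Tapbp, which holds class I to the transporter, was the exception in P6, at 255 FPKM against 101.1 to 162 in P1 to P5, and was the 1 gene of the 10 past 2-fold in that comparison. Its log2 difference was 1.01 there, and inside the limit with the median of ratios (0.90) and after division by Gapdh (0.92). The nonclassical class I genes were of the same direction in part. Of 15 tested, 1 (H2-Q7) was past 2-fold lower in P2 than in P4, and 5 (H2-Q7, H2-Q4, H2-T23, H2-T24 and H2-T10) in P1 than in P4. The latter count was 3 with the median of ratios or quantile normalization and 1 after division by Gapdh, where 1 other gene was past 2-fold higher. H2-T23, which encodes Qa-1, was at 81.8 FPKM in P1 and 215 in P5. Fcgrt, the neonatal Fc receptor, went the other way, with 229 FPKM in P1 and 92.5 in P5. H2-Q6 was at 10.4 to 22.4 FPKM in P1 to P5 and 0.00754 in P6, and Hfe, of iron uptake, was also past 2-fold lower in P6 while Cd1d1, which presents lipids, was higher. Reads of the H2-Q and H2-T genes can be split among near-identical copies, so single values of that family are uncertain.

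The regulators showed smaller differences than the class II genes, with 1 exception at low level. Ciita, the class II coactivator, was at 0.0846, 0.259 and 0.229 FPKM in P1 to P3, 0.570 and 0.544 FPKM in P4 and P5 and 0.525 FPKM in P6, from an estimated 17 reads in P1 to 126 in P5. P4 over P1 was 6.74 times (4.02 to 11.9) and P4 over P2 was 2.20 times (1.60 to 3.04), while P6 and P4 did not differ beyond counting error (0.921, 0.684 to 1.25). Its mean was under 1 FPKM, so it was not among the genes tested. Nlrc5, the class I coactivator, was at 1.54, 1.85, 2.33, 2.75, 3.36 and 2.19 FPKM from P1 to P6, in the same order from P1 to P5 as the class I chains. Of the 11 regulators tested, none was past 2-fold in P2 over P4 or P3 over P5. Irf1 did not follow the CD105 groups, at 122 to 163 FPKM in P1 to P5 and 88.0 in P6. The receptor chain Ifngr1 and the kinase Jak1 were lower in P4 to P6 than in P1, at 95.1 against 44.8 to 71.8 FPKM and 91.3 against 36.7 to 68.8.

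Of the costimulatory molecules, which a presenting cell shows beside MHC to activate T cells, Cd80, Cd86 and Cd40 were low and Icosl was not. Cd80 was at most 1.22 FPKM, Cd86 at most 0.112 and Cd40 at most 0.252. Cd274, which encodes the inhibitory ligand PD-L1, was at 2.42 to 2.45 FPKM in P1 to P3 and 4.43 to 5.47 in P4 to P6, and was past 2-fold in P3 over P5 at -1.03, but inside the limit with the median of ratios (-0.96), quantile normalization (-0.999) and division by Gapdh (-0.50). Icosl, also a costimulatory ligand, was at 14.4 to 21.0 FPKM in P1 to P3 and 5.64 to 10.02 in P4 to P6. It was past 2-fold higher in P2 than in P4 and past 2-fold lower in P6.

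Since leukocytes carry class II, their markers were set beside it. The sums of 5 pan-leukocyte markers were 7.43, 10.7, 4.15, 3.55, 2.21 and 8.41 FPKM from P1 to P6, with Ptprc, which encodes CD45, at 0.186 to 0.755. The sums of 6 B cell markers were 5.89, 7.59, 2.50, 2.64, 1.41 and 3.95 FPKM. Both were lower in P4 and P5, where class II was high, than in P1 and P2, where it was low. The other libraries differed from this. P6 had class II near the level of P4 and P5 with sums of 8.41 and 3.95 FPKM, and P3 had low class II with sums of 4.15 and 2.50 FPKM. The 4 T cell markers summed to at most 0.881 FPKM. Of the 7 dendritic cell markers, Zbtb46 was at 2.54 FPKM in P1 and 14.9 in P5 and made nearly all of the sum of 2.81 to 15.1 FPKM, while Flt3 and Itgax were at most 0.0238 and 0.0389 FPKM. The 9 macrophage markers, led by Lyz2 in each library, summed to 24.8, 40.6, 43.2, 24.3, 20.003 and 60.2 FPKM across P1 to P6. Single markers differed from this sum. Mrc1 was at 0.314, 0.841, 1.30, 2.34, 3.83 and 2.72 FPKM and Cd68 at 0.858, 1.89, 1.82, 2.20, 2.67 and 6.502 FPKM from P1 to P6. Both were lowest in P1 and higher in P4 and P5 than in P1 to P3, as class II was. In the other direction, 4 of the 7 tested, Lyz2, C1qa, C1qb and C1qc, were past 2-fold higher in P3 than in P5. Their log2 differences were 1.51 to 1.69, where 6.79% of all genes were past 2-fold higher, and Csf1r was at 0.84. All 7 macrophage markers tested were lower in P1 than in P2. In P6, Csf1r reached 11.6 FPKM, against 0.763 to 1.66 in P1 to P5. The part of macrophages and other leukocytes in the class II levels was not tested.

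**Figure D4:**
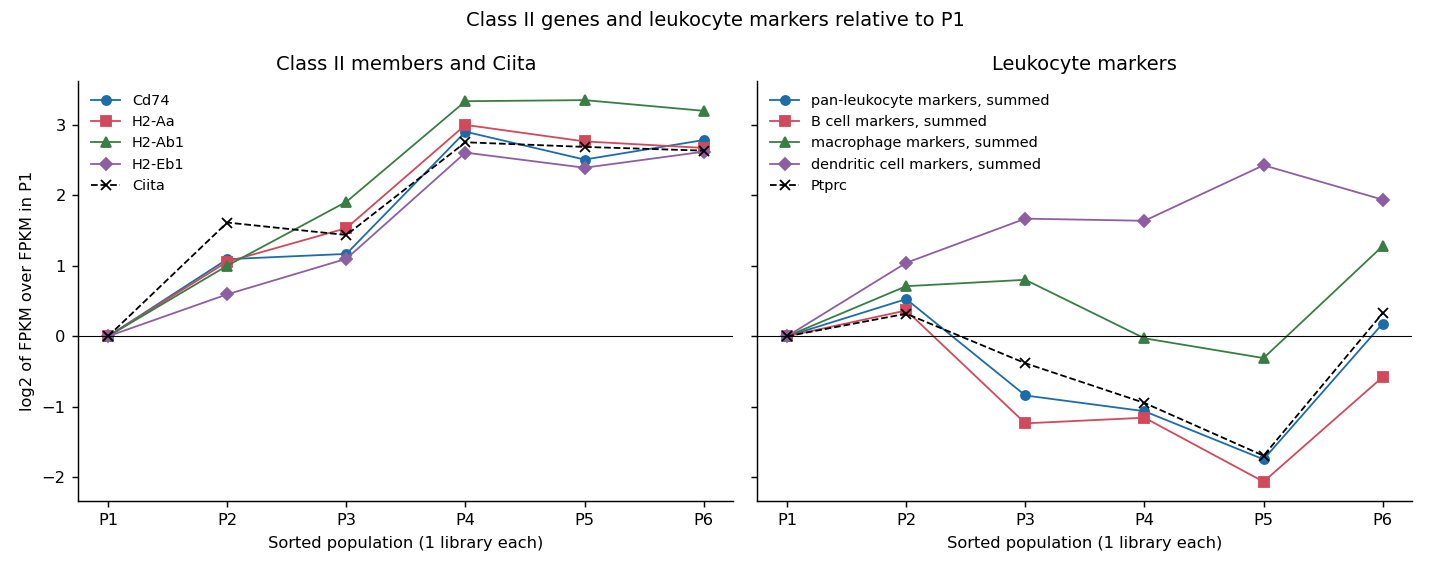
Log2 of FPKM over FPKM in P1 for the class II members and Ciita (left) and for the summed marker lists of leukocytes and Ptprc (right), 1 point per library, with lines that only join the points. In P4 and P5 the class II genes and Ciita are above P1 while the pan-leukocyte and B cell sums are below it, the macrophage sum, led by Lyz2, is near it in P4 (24.3 against 24.8 FPKM) and below it in P5, and the dendritic cell sum, which is nearly all Zbtb46, is above it. In P6 the class II genes and the pan-leukocyte, macrophage and dendritic cell sums are above P1, and the B cell sum is below it.

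Mesothelial markers, and Kdr and Esam among the endothelial ones, were higher in P4 to P6 than in P1 to P3, while other lists varied. The 6 mesothelial markers summed to 72.6, 95.002, 147, 916, 741 and 2774 FPKM from P1 to P6, with Msln at 0.127 FPKM in P1 and 171 in P6. From P4 to P6 this sum went from 916 to 2774 FPKM, while the class II members in P6 were at 0.797 to 1.01 of their P4 level. The 6 endothelial markers summed to 1.62 to 2.98 FPKM in P1 to P3, 18.6 and 11.3 in P4 and P5 and 111 in P6. In P4 to P6 almost all of it came from Kdr and Esam. Pecam1, Cdh5, Emcn and Tie1 were lower in P4 and P5 than in P1 to P3, and at most 0.992 in any library. The 8 pancreatic acinar genes summed to 3.85, 208, 21.6, 1109, 136 and 1643 FPKM. Adipocyte markers summed to 3.73, 4.93, 3.55, 1.04, 0.699 and 152 FPKM from P1 to P6, lower in P4 and P5 than in P1 to P3. The 8 fibroblast and reticular cell markers summed to 2639 to 3599 FPKM in P1 to P3 and to 1323 to 1918 in P4 to P6. Of these, Pdgfra, Eng, Vcam1, Ccl19 and Dpt were lower in P4 to P6 than in P1 to P3, opposite to the members. The cells were sorted on the products of Pdgfra and Eng. The rest differed from the sum. Pdpn was at 102, 84.6, 78.8, 120, 103 and 125 FPKM from P1 to P6. Icam1 was at 44.3 FPKM in P1, 81.5 in P3, 78.9 in P5 and 19.9 in P6, and Col1a1 was highest in P6 at 1735 FPKM. The part of mesothelial, endothelial, acinar and adipose RNA in the members' levels was not tested.

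The scaling between libraries set part of the class I result. Gapdh itself was at 214 to 224 FPKM in P1 to P3, 302 and 326 in P4 and P5 and 270 in P6, and division by it moved the median of all genes by 0.47 (log2) in P2 over P4, 0.53 in P3 over P5 and 0.49 in P1 over P4. The median of ratios and quantile normalization moved it by at most 0.16 and 0.20, in P1 over P4. On the Gapdh scale B2m and H2-D1 turned from -0.49 and -0.50 to 0.05 and 0.05 in P3 over P5. On that scale 8 of 10 members kept both CD105- populations above P1 to P3, Tap1 and Psmb9 by a small margin. The class II members stayed lower in P3 than in P5, at -0.69 to -0.90, but none passed 2-fold. They stayed past it in P2 over P4, at -1.33 to -1.85. The other pathway genes past 2-fold went from 4 lower and 1 higher to 0 lower and 4 higher in P3 over P5, from 4 and 2 to 3 and 4 in P2 over P4, and from 3 and 2 to 6 and 1 in P6 over the mean. With the median of ratios between libraries, Psmb8 and Psmb9 turned to 0.03 and 0.07 in P1 over P2, so that 8 of 10 members were ordered P1 below P2 below P3 and 7 were lowest in P1. The remaining gene of these, B2m, was then lowest in P6. The order of the class II members between CD105+ and CD105- cells was the same under all 4 scalings.

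Genes of the most similar pattern were sought over the 6 libraries by the root mean square difference of centred log2 values from the mean profile of each member group. The 5 nearest to the class I chains were Gm13157 (0.0458), Rnf181 (0.0488), H2-Q10, Gm7030 and H2-Q1, and of these H2-Q1 and Gm7030 share 76-base stretches with H2-D1. The 5 nearest to the peptide supply genes were Cdc42ep1 (0.0548), Gm13157, H2-T9, Trim30a and Il18bp. For class II the distances were larger, and Acot7 (0.173), Dmrtc1a (0.173), Cd82 (0.193) and Mgat3 (0.211) were among the 5 nearest. The mean class II profile spanned 2.94 in log2, against 1.07 for the class I chains and 1.04 for the peptide supply genes. Distances were not scaled to this span, so they cannot be compared between the groups. Cd82, a tetraspanin, was at 13.1 FPKM in P1 and 100.6 in P5, and Acot7, an acyl-CoA thioesterase, at 3.32 and 26.1.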

How the data were processed

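Omental cells were sorted on a FACS Aria III, RNA was purified with the RNeasy Micro Kit, NEBNext Ultra libraries were prepared and single-end reads of 76 bases were taken on an Illumina NextSeq. The authors deposited FPKM for 23847 rows per library, and the submitters' processing notes name TopHat2 2.0.7, Cufflinks 2.1.1 and mm10. The annotation, filters and pooling of mice are not given in the sources used here. The deposited FPKM values were used without further scaling, and 495 rows that repeat a symbol were summed. With 1 library per population, genes were compared by differences of log2(FPKM + 0.1), a scale that understates changes of low genes, among genes of a mean of at least 1 FPKM, and called past 2-fold with no test. Depth was estimated from the value of 1 read in genes with a single GENCODE M21 transcript of at least 800 nt, less an assumed fragment of 200 nt. Within each library, 53.9% to 59.1% of the values worth at most 10 reads fell within 0.05 of a whole number, so reads are estimates and no count test was run. Intervals of ratios are exact conditional binomial, and reads are not independent molecules. Named genes were all members, list genes of a mean of at least 1 FPKM past 2-fold (at most 8 per comparison), genes of the ratios and regulators, the leading or absent markers of each list, and the 5 nearest genes of each group, of which some are not reported here. Other list genes given as examples were chosen after their values were seen. The members and lists were chosen with earlier results of these data known, and the paired motif and the length of the motifs were chosen after the sequences were seen. Fold calls, depth and nearest genes were tested on simulated data. Of 200 genes raised 4 times in P4 in a simulated P2 over P4 comparison with counting error only, 200 were recovered. A rise of 4 times lies well past the limit, so this gives no measure for differences near 2-fold. Python 3.11.15, numpy 2.4.6, pandas 2.3.3, scipy 1.17.1, Biopython 1.88 and matplotlib 3.10.9 were used. Alternatives were 4 scalings, no minimum, the highest row of a symbol, pseudocounts of 1 and 0.01, and thresholds of 1.5 and 3 times.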

Additional observations from a re-analysis of the deposited data

Results flagged for a closer look

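Of the 10 members, 3 class II genes differed in opposite directions between intermediate and low ALDH activity in CD105+ and in CD105- cells. In the deposited values each was beyond counting error, for Cd74 in CD105+ cells only just. For Cd74, P2 over P3 was 0.949 (0.901 to 0.9999) and P4 over P5 was 1.32 (1.28 to 1.36), a difference of 0.47 in log2. After division by Gapdh, Cd74 was closer between P2 and P3, at 53.3 and 54.6, and no interval was computed on that scale. For H2-Aa the ratios were 0.719 (0.652 to 0.792) and 1.18 (1.11 to 1.24), a difference of 0.71. For H2-Eb1 they were 0.705 (0.644 to 0.773) and 1.16 (1.10 to 1.22), a difference of 0.72. With 1 library per population the difference between the CD105+ and CD105- cells was not tested. The summed macrophage markers (40.6 FPKM in P2, 43.2 in P3, 24.3 in P4 and 20.003 in P5), mesothelial markers (95.002 and 147, 916 and 741 FPKM) and endothelial markers (1.86 and 2.98, 18.6 and 11.3 FPKM) had the same opposite directions, lower in P2 than in P3 and higher in P4 than in P5. The summed acinar genes were higher in P2 (208 FPKM) than in P3 (21.6 FPKM) and in P4 (1109 FPKM) than in P5 (136 FPKM). The part of these cells in the class II differences was not tested.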

How the results depend on the processing

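No paired analysis was possible because there was a single library of each population, and none could be left out. Of 560 log2 differences of members under the scalings, filters and pseudocounts, 14 changed sign, 8 of them with division by Gapdh, and none of these was past 2-fold. Members past 2-fold in P1 over P2 were 1 instead of 2 with the median of ratios, quantile normalization or a pseudocount of 1, and 3 with a common sum of FPKM. In P3 over P5 they were 0 instead of 4 with division by Gapdh, which also left 1 instead of 7 members highest in P5. In P6 over the mean of P1 to P5 they were 1 instead of 0 with quantile normalization and, in a comparison added after seeing the data, 4 against P3 alone. At a threshold of 1.5 times, members called were 4 in P1 over P2, 1 in P2 over P3, 9 in P2 over P4, 10 in P1 over P4 and 4 in P6 over the mean. At 3 times they were 0 in P1 over P2 and 0 in P3 over P5. Other pathway genes past the threshold in P2 over P4 were 18 at 1.5 times and 2 at 3 times instead of 6, and in P3 over P5 16, 0 and, with a pseudocount of 1, 3 instead of 5. In P6 over the mean they were 14 at 1.5 times, 1 at 3 times and 8 without a minimum instead of 5. Of the 5 nearest genes, 3 were kept for the peptide supply genes and 3 for class II with a pseudocount of 1, and 3 for the class I chains when genes of the fixed lists were left out, a choice made after seeing the data. The cause was not tested, other than that a lower threshold or no minimum admits more genes. Depth limits Ciita most, at an estimated 17 reads in P1.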
